A study of Mus musculus with 18 samples.

Results

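The Serpina3 genes form a cluster on mouse chromosome 12. The 8 genes described here, Serpina3c, 3f, 3g, 3h, 3i, 3k, 3m and 3n, were taken by gene name from a table of 54532 genes, and lie within 268 kb (GRCm38, chr12:104146382-104414329). They were chosen by their counts in FOXS1 KO clones and WT cells, which earlier results of these data had shown to be higher in the clones, so that difference is given below as a description without a test. Counts were measured by bulk poly(A) RNA sequencing of 10T1/2 cells, a line of multipotent mouse fibroblasts that the labels spell CH310T1/2 and class as mesenchymal stem cells. The 18 libraries fall into 6 groups of 3, in which WT cells, FOXS1 KO clone 1 and FOXS1 KO clone 2 were each left uninduced (labelled control) or stimulated. Stimulated cells received TGF-β1 at 1 nM during 12 h, followed by 48 h in DMII, an adipogenic mix that holds indomethacin, insulin, 3-isobutyl-1-methylxanthine and dexamethasone, so the agents cannot be told apart. Each FOXS1 KO line grew from a single cell after CRISPR editing of Foxs1 and puromycin selection, and each genotype is therefore 1 clone or 1 parental line. No source says whether the 3 libraries of a group came from separate cultures, so p-values measure the spread between libraries, which may be technical.

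Serpins are serine protease inhibitors. A serpin presents a flexible reactive center loop as bait, and cleavage of the loop traps the protease in an inactive complex. Human SERPINA3, α1-antichymotrypsin, is a single gene and a plasma acute phase protein, whereas the mouse carries a tandem array of Serpina3 genes that differ most in the loop. In liver and other tissues, transcription of acute phase genes is known to respond to interleukin 6 family cytokines through STAT3, to C/EBP factors, to NF-κB and to glucocorticoids such as dexamethasone.

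Of the 8 genes, 7 are annotated as protein coding. Serpina3h is annotated as a transcribed unprocessed pseudogene. Serpina3c lies on the minus strand and the other genes on the plus strand. The DNA that encodes the reactive center loop, where mouse Serpina3 genes are known to differ most, is shown. How divergence varies along the rest of the coding sequence was not tested. The 7 stretches below begin at the conserved hinge of the loop and are aligned to Serpina3n, with capitals at aligned bases that differ from Serpina3n. Each was read from GENCODE M21 transcripts (GRCm38), runs 5′ to 3′ on the coding strand and lies within 1 exon, and the pseudogene Serpina3h is not shown.
Serpina3n (chr12:104413448-104413537, plus strand): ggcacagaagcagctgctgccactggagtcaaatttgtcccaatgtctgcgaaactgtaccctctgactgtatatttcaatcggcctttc
Serpina3m (chr12:104393769-104393858, plus strand): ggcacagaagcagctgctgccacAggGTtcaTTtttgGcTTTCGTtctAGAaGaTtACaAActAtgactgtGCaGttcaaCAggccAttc
Serpina3k (chr12:104345269-104345352, plus strand): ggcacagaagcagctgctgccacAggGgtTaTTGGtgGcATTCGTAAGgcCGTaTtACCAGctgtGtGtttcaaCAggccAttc
Serpina3c (chr12:104147307-104147387, minus strand): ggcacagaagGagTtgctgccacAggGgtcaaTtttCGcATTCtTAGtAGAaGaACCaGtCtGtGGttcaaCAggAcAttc
Serpina3f (chr12:104220245-104220337, plus strand): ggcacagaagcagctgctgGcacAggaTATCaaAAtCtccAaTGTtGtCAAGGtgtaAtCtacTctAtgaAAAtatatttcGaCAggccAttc
Serpina3i (chr12:104268480-104268569, plus strand): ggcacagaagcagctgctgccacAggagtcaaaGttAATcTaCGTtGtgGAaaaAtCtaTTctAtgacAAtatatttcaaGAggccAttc
Serpina3g (chr12:104241072-104241161, plus strand): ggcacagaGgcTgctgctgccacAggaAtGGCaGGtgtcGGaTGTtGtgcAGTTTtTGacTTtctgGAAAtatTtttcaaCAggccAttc

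In the 24 bases that open the hinge, each gene differed from Serpina3n at 1 to 3 bases, and in the bases that follow at 21 to 30. Over the whole coding sequence the most similar pair was Serpina3k and Serpina3m (91.7% identical), followed by Serpina3f and Serpina3i (91.2%). Exact 50-base windows shared with another gene of the family made up 4.25% (Serpina3c) to 24.4% (Serpina3h) of a transcript. At the read length of 150 bases, shared windows were 0.262% of Serpina3k and 0.331% of Serpina3m and none in the other 6 members. Serpina3k and Serpina3m also share a first exon of 60 bases on the same strand (chr12:104338486-104338545), 2.92% and 3.49% of their exonic bases. How the authors' counting placed reads that match several members was not tested.

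**Figure D1:**
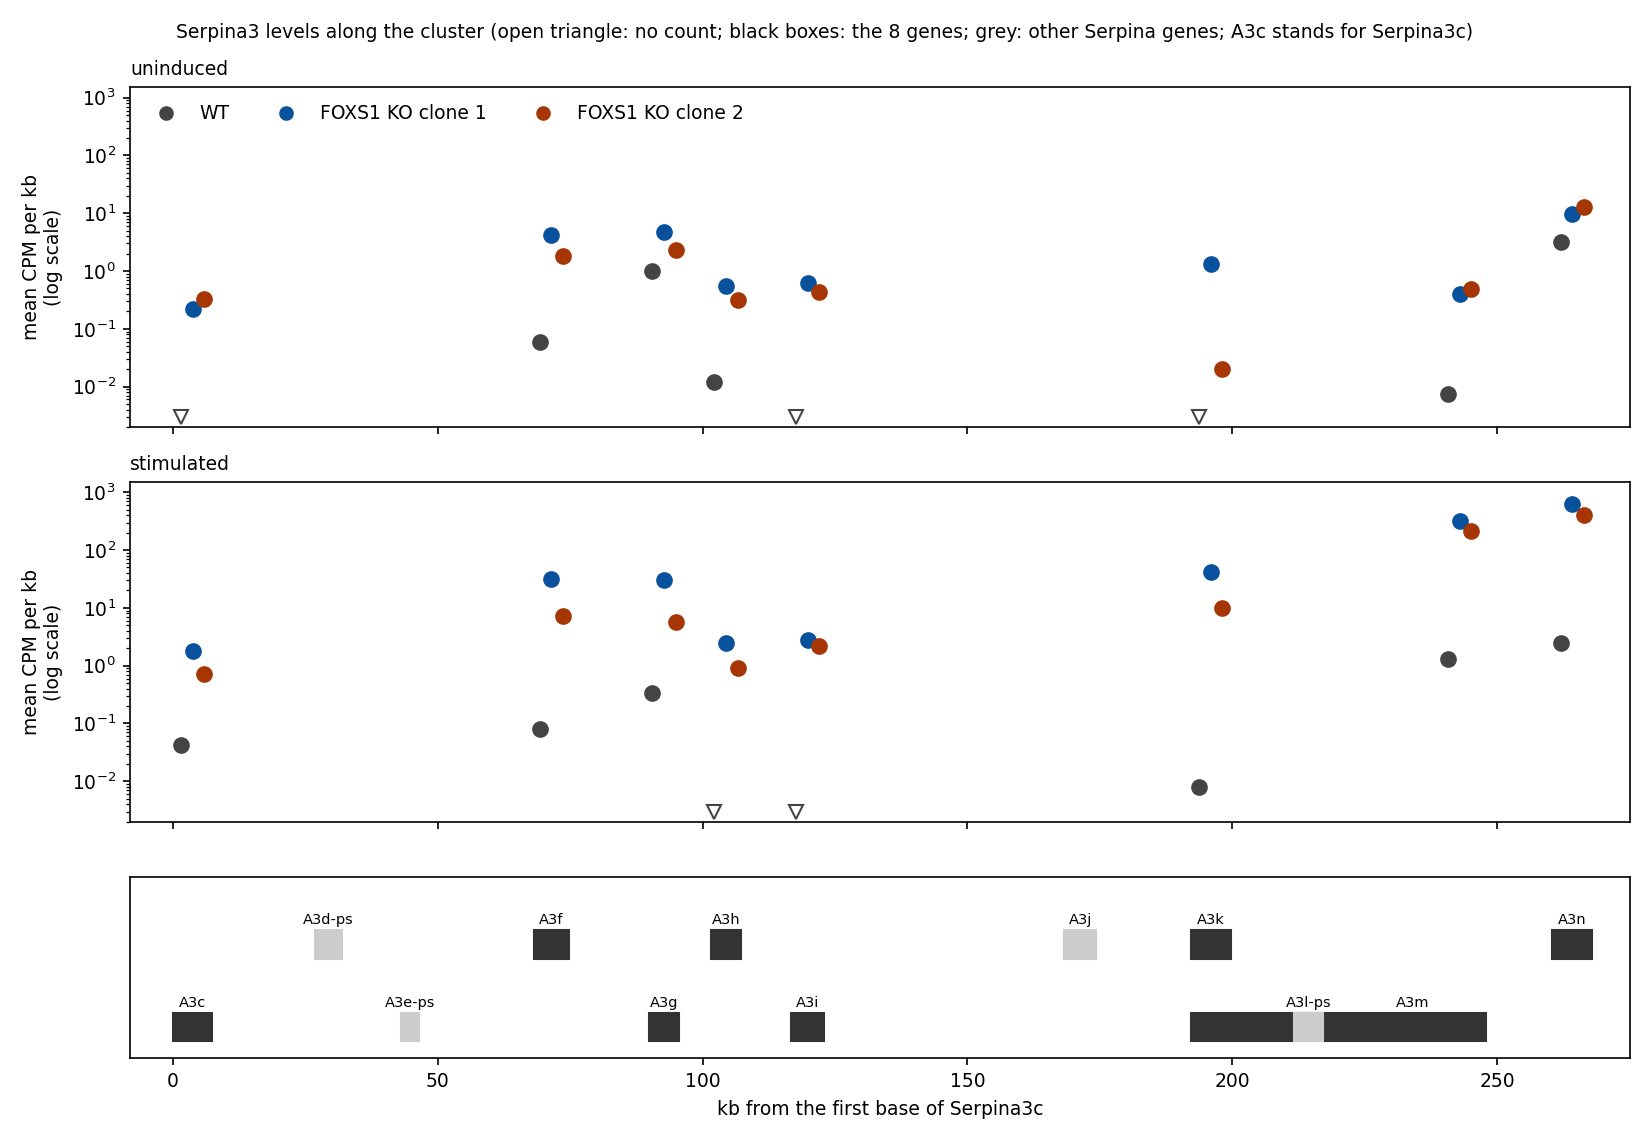
Mean CPM per kb of exon (log axis) of each Serpina3 gene in uninduced cells (top) and stimulated cells (middle), placed by distance in kb from the first base of Serpina3c, with the gene models at the bottom. Points of a gene are set side by side by genotype. In stimulated clones Serpina3m and Serpina3n, at the right end, stand highest, and the grey boxes (Serpina3j and 3 pseudogenes) lie between or within expressed members.

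Whole-library facts that bear on these values are few. Total counts ran from 15576685 to 42005596, and 14317 genes passed the filter (0.496 CPM or more in 3 libraries). Foxs1 checks the labels poorly: it had 31 to 64 counts in WT libraries and 412 to 1436 in the libraries labelled FOXS1 KO, a log2 difference of 3.36 to 4.44. An edit within the gene is not visible in gene totals, and the directions below rest on the labels. The authors checked the edited locus by DNA sequencing and reported loss of FOXS1 protein by western blot in both clones. All 8 fibroblast markers had counts in every group, although Thy1 had only 51 (uninduced) and 17 (stimulated) counts over the 3 libraries of clone 2, against 3220 to 10903 in the other groups. The leukocyte markers Ptprc, Tyrobp and Cd3e were at 0 in every library. The summed leukocyte list was 5.70 to 7.07 CPM in uninduced clones and at most 1.99 CPM elsewhere. Most of it in uninduced clones was Lyz2, at a mean of 5.59 (clone 1) and 4.65 CPM (clone 2) against 0.731 CPM in uninduced WT. The adipocyte list was 30.5 to 43.1 CPM in stimulated clone 1 and at most 4.64 CPM elsewhere. In bulk RNA, fewer cells of a type and less RNA per cell cannot be told apart.

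One library stood apart. FOXS1 KO clone 1 uninduced replicate 3 held 1074 counts of Alb (albumin), 230 of Apoa1 and 111 of Ttr, and its 8 hepatocyte markers summed to 87.3 CPM, against 0 to 0.768 CPM in the other 17 libraries. It also held every count of the liver genes Serpina1a to Serpina1d in that group, such as 128 counts of Serpina1b against 0 in the other uninduced clone 1 libraries. Serpina3k, a plasma protein made mainly in liver, had 155 counts in this library and 0 in the other uninduced clone 1 libraries. The main results that rest on this library are given with and without it.

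**Figure D2:**
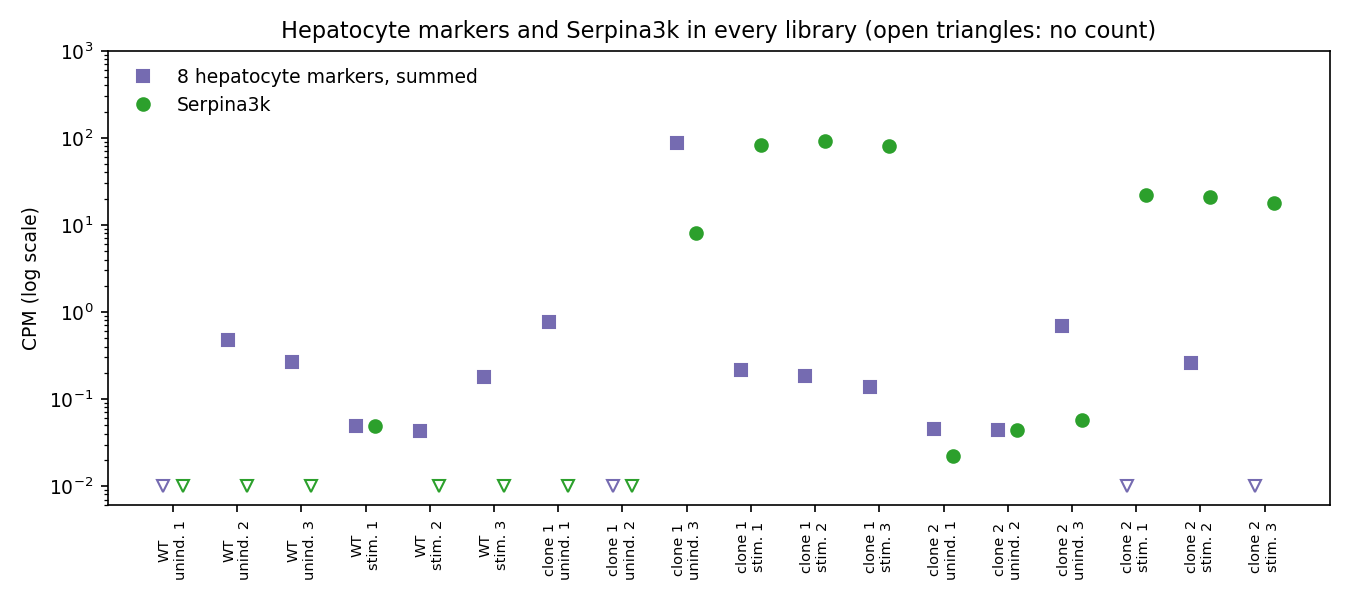
CPM (log axis) of Serpina3k (green circles) and of the sum of 8 hepatocyte markers (purple squares) in each of the 18 libraries, with open triangles for no count. The hepatocyte markers stand at 87.3 CPM in clone 1 uninduced replicate 3, the only uninduced library with more than 1 count of Serpina3k.

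In WT cells the cluster was nearly silent. Serpina3n, the mouse gene usually set against human SERPINA3 and an inhibitor of cathepsin G and granzyme B, was the highest member on the scale of CPM per kb of exon (CPM/kb, where CPM are counts scaled to a common depth after TMM normalization), at 3.14 ± 0.396 uninduced and 2.45 ± 0.411 stimulated (SD, n = 3). Serpina3g, an intracellular serpin also known as Spi2A that protects cells from lysosomal cathepsins, followed uninduced at 1.02 ± 0.456 CPM/kb. In stimulated WT cells Serpina3m came next, at 1.30 ± 0.0536 CPM/kb, and each of the other members was below 0.35 CPM/kb.

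Several members had few or no counts in WT. Serpina3i had 0 counts in all 6 WT libraries, which allows up to 0.0480 CPM uninduced and 0.0456 CPM stimulated (3 counts over the group, counting error only). Serpina3k had 0 counts in the uninduced libraries and 1 count in 1 stimulated library. Serpina3h had 1 count in 1 uninduced library and 0 when stimulated, and Serpina3c had 0 uninduced and 2, 1 and 3 counts stimulated. Serpina3f ranged from 0 to 10 counts over the 6 WT libraries. All 8 genes passed the expression filter, but Serpina3c, 3f, 3h, 3i and 3k did so only through clone groups.

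Stimulation changed 3 of the 8 genes in WT cells. A gene was called at an edgeR quasi-likelihood adjusted p (Benjamini-Hochberg over the 14317 tested genes) below 0.05 with an absolute log2 fold change above 1. By this rule 6.25% of all genes were called higher, 13.6% lower and 19.9% in either direction in stimulated WT cells, and 2 members were higher and 1 lower. The median log2 change was 0.17 over the 8 members and -0.04 over all genes.

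Serpina3m carried the clearest rise in WT. Its counts were 0, 0 and 1 uninduced and 44, 54 and 49 stimulated, so the groups did not overlap (log2 fold change 6.68, SE 0.43, edgeR adjusted p = 4.38e-14). Against the single uninduced count the ratio was 140 (95% counting interval 24.7 to 5552). Serpina3g fell, from 1.51, 3.25 and 1.68 CPM to 0.880, 0.518 and 0.767 CPM, again without overlap (log2 -1.56, SE 0.28, edgeR adjusted p = 2.4e-05). Serpina3c was called higher on 6 stimulated counts against none (at least 1.90-fold, edgeR adjusted p = 0.033). That call was lost without any of 5 of the 6 WT libraries (all but stimulated replicate 2), with edgeR adjusted p from 0.0516 to 0.0836.

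Serpina3n was not called in WT. It stood at 5.53, 6.92 and 6.98 CPM uninduced and at 5.23, 4.15 and 5.82 CPM stimulated, and the ranges overlapped (log2 -0.37, SE 0.18, edgeR adjusted p = 0.0917).

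In uninduced clones most members were already above WT. By the rule that chose them this is described only. Serpina3n was at 22.8, 16.5 and 20.9 CPM in clone 1 and 29.0, 22.2 and 27.2 CPM in clone 2, which is 3.06 and 4.09 times the pooled WT level. Serpina3f was at 10.96, 8.47 and 9.79 CPM in clone 1 and 4.28, 3.59 and 4.46 CPM in clone 2, or 67.8 and 28.7 times WT. Serpina3g was 4.70 and 2.34 times WT. Every clone library lay above every WT library for these 3 genes, as for 27.7% (clone 1) and 27.6% (clone 2) of all genes.

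The members with at most 1 uninduced WT count also gave reads in uninduced clones. Serpina3i had 31, 25 and 24 counts in clone 1 and 44, 17 and 21 in clone 2, at least 29.0-fold and 20.2-fold above WT. Serpina3c was at least 10.1-fold (clone 1) and 14.8-fold (clone 2) above WT. Serpina3h and Serpina3m, each with 1 WT count, gave ratios of 50.004 (8.54 to 2017) and 42.4 (7.17 to 1717) in clone 1, and 26.6 (4.47 to 1078) and 54.6 (9.50 to 2186) in clone 2. Of the 39 uninduced clone 1 counts of Serpina3m, 20 lay outside replicate 3. Serpina3k was the exception, with 1 count in each clone 2 library and, apart from replicate 3, none in clone 1.

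After stimulation every member stood above WT in both clones. Serpina3n was 258 times the WT level in clone 1 and 163 times in clone 2, Serpina3m 247 and 163 times, Serpina3f 401 and 91.3 times, Serpina3g 91.4 and 17.0 times, and Serpina3c 43.0 and 17.6 times. Serpina3i was at least 133-fold and 107-fold higher, and Serpina3h at least 79.8-fold and 29.1-fold. Serpina3k, with 1 WT count, gave a clone 1 ratio of 5591 (1003 to 220886) and a clone 2 ratio of 1333 (239 to 52721). No clone library overlapped a WT library for any member in stimulated cells, where 31.7% (clone 1) and 32.2% (clone 2) of all genes had all 3 clone libraries above all 3 WT libraries. Over all tested genes, 9.42% were called higher than WT in stimulated clone 1 and 7.95% in stimulated clone 2, and 6.32% and 5.54% in uninduced cells. Both clones are set against the same WT libraries.

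**Figure D3:**
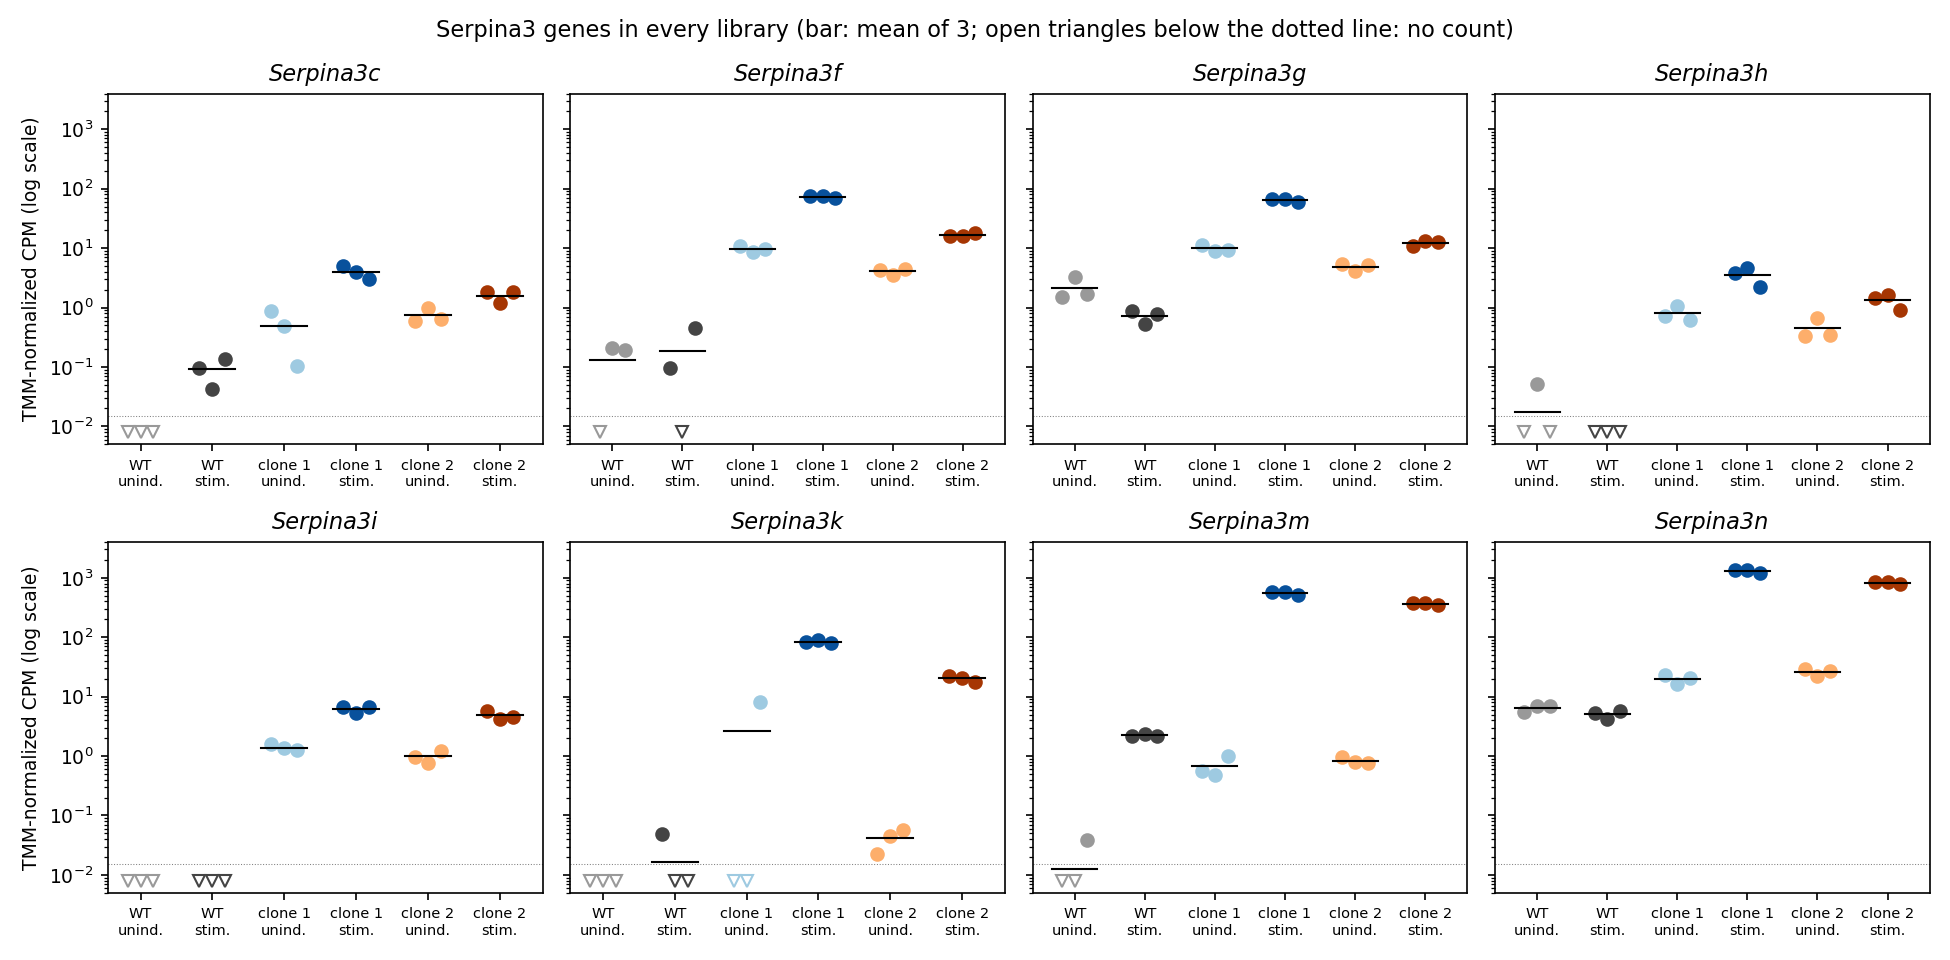
TMM-normalized CPM (log axis) of the 8 Serpina3 genes in the 18 libraries, by genotype and treatment, with a bar at the mean of 3 and open triangles for libraries without a count. For each gene the stimulated clone libraries stand above all WT libraries, and Serpina3k shows 1 uninduced clone 1 library at 8.03 CPM.

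The response to stimulation within each clone is a different contrast from the clone and WT difference that chose the genes, and was tested. It uses the same libraries. Genes chosen for high clone counts may also tend to rise there, so the calls are not independent of the choice. All 8 members rose in clone 1 and all 8 in clone 2, where 5.95% and 6.46% of all genes were called higher. The median log2 change of the members was 2.96 in clone 1 and 2.16 in clone 2, against -0.02 over all genes in each. The 8 calls in clone 1 were also made without uninduced replicate 3. For every member in each clone, all 3 stimulated libraries were above all 3 uninduced ones, as they were for 28.9% of all genes in clone 1 and 31% in clone 2. Serpina3k reached the filter's cutoff in all 3 libraries of the stimulated clone groups only, so it was tested because it is high there, and its rise is given as a description. The counts of 8 and the medians above include Serpina3k. The other 7 members reached the cutoff in an uninduced clone group too, Serpina3c in clone 2 only and Serpina3h in clone 1 only. In clone 1 Serpina3c, and in clone 2 Serpina3h, reached it only when stimulated, so those calls also lean on the group where they are high.

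The 3 genes at the distal end of the cluster, Serpina3k, Serpina3m and Serpina3n, rose most. Serpina3n reached 1371, 1333 and 1209 CPM in stimulated clone 1 (log2 6.02, SE 0.12, edgeR adjusted p = 1.47e-16) and 848, 833 and 779 CPM in stimulated clone 2 (log2 4.96, SE 0.12, edgeR adjusted p = 8.1e-16). These groups stood far above their uninduced values of 16.5 to 29.0 CPM.

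Serpina3m, a liver serpin of the contrapsin type, started below 1 CPM in all 6 uninduced clone libraries. It reached 575, 574 and 508 CPM in clone 1 (log2 9.66, SE 0.11, edgeR adjusted p = 1.97e-32) and 370, 372 and 354 CPM in clone 2 (log2 8.70, SE 0.10, edgeR adjusted p = 3.86e-32). It was the member with the largest fitted rise in clone 1 over all libraries, from 39 to 37526 counts over 3 libraries. Without uninduced replicate 3 that rise was log2 10.03.

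Serpina3k, the kallikrein-binding serpin of mouse plasma, went from 1, 1 and 1 counts to 396, 320 and 293 in clone 2, a ratio of 572 (195 to 2779). In clone 1 it reached 1559, 2461 and 1748 counts. Its rise there was 31.5-fold with all libraries and at least 1081-fold without uninduced replicate 3, whose 155 counts were the whole uninduced signal. Both stimulated groups lay above that library too.

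Serpina3f, 3g, 3h, 3i and 3c rose less, and from a higher share of their stimulated level. Serpina3f went up to 74.8, 74.7 and 69.8 CPM in clone 1 (log2 2.91, SE 0.15, edgeR adjusted p = 1.45e-14) and to 16.2, 15.8 and 17.98 CPM in clone 2 (log2 2.01, SE 0.17, edgeR adjusted p = 1.99e-10). Serpina3g, which fell in WT, rose to 66.4, 68.3 and 60.7 CPM in clone 1 (log2 2.71, SE 0.14) and to 10.7, 13.1 and 12.9 CPM in clone 2 (log2 1.33, SE 0.16). Serpina3i rose by a log2 of 2.14 and 2.32 and Serpina3h by 2.15 and 1.58 in clones 1 and 2.

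Serpina3c gave the smallest rise of clone 2. It had 94, 106 and 66 counts in stimulated clone 1 against 17, 9 and 2 uninduced (log2 3.01, SE 0.48, and log2 2.54 without uninduced replicate 3). In clone 2 it had 32, 18 and 30 against 27, 22 and 11, which became separate groups only after scaling for depth (log2 1.12, SE 0.46, edgeR adjusted p = 0.0416). The clone 2 call was lost without uninduced replicate 1 or 3 or stimulated replicate 1 or 3 (log2 0.96 to 1.05), and DESeq2 gave an adjusted p of 0.0534.

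**Figure D4:**
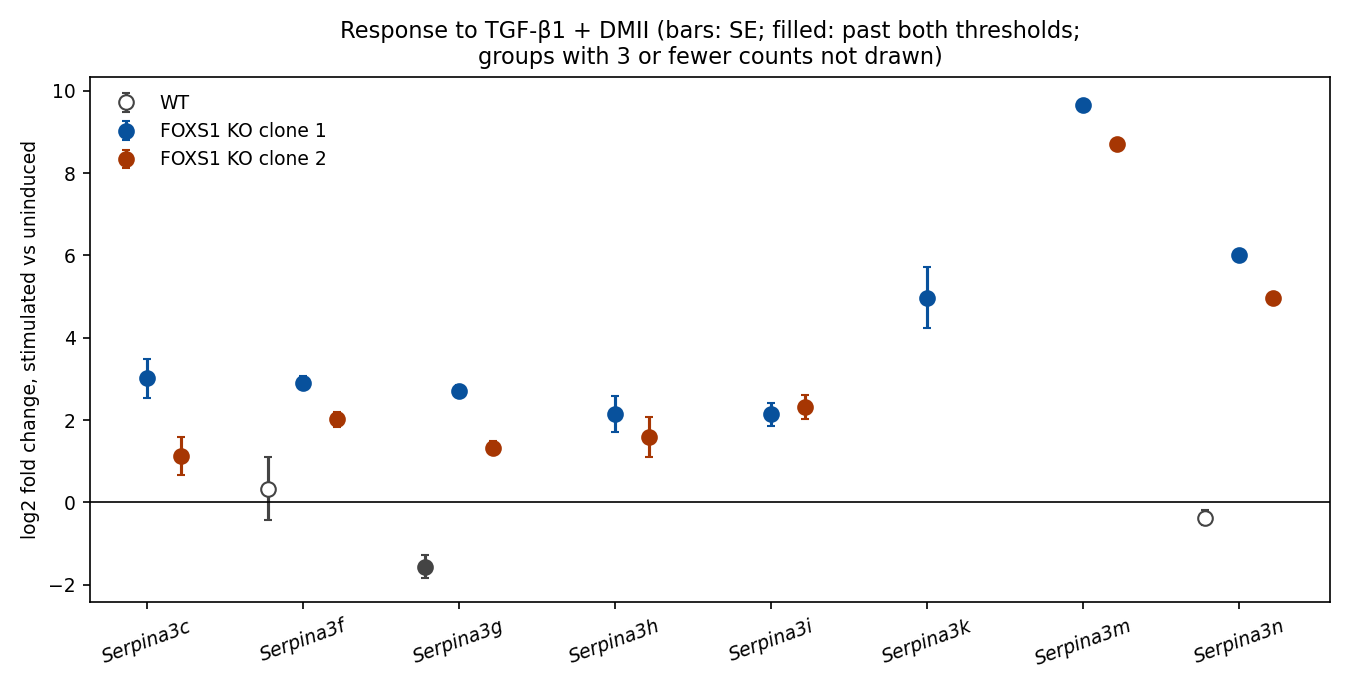
Log2 fold change of stimulated over uninduced cells for each Serpina3 gene in WT (grey), clone 1 (blue) and clone 2 (rust), with SE bars. Filled points passed both thresholds, and a response in which either group held 3 counts or fewer over its libraries is not drawn. The clone points are all above 0, and Serpina3g in WT is the filled point below 0.

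The make-up of the cluster's transcripts shifted with these unequal rises. In uninduced clone 1, Serpina3n held 43.9% ± 2.88 of the counts on the 8 genes (SD, n = 3), Serpina3f 21.4% ± 1.93, Serpina3g 21.9% ± 3.19 and Serpina3m 1.46% ± 0.415. These uninduced shares include replicate 3, where Serpina3k held 15.8% of the counts, against 0% in replicates 1 and 2. Serpina3n held 46.7%, 44.0% and 41.0% in replicates 1, 2 and 3. In stimulated clone 1 the shares were 62.3% ± 0.440 for Serpina3n, 26.4% ± 0.235 for Serpina3m, 3.50% ± 0.0916 for Serpina3f and 3.11% ± 0.0654 for Serpina3g. For each of these 4 genes the uninduced and stimulated ranges did not overlap.

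Stimulated clone 2 held 66.0% ± 0.455 Serpina3n and 29.4% ± 0.395 Serpina3m. Stimulated WT cells, at a far lower level, also held 60.8% ± 1.67 Serpina3n and 27.3% ± 5.10 Serpina3m. Uninduced WT cells held 74.5% ± 7.04 Serpina3n, 23.8% ± 6.47 Serpina3g and 0.143% ± 0.248 Serpina3m. The 8 genes together took 0.181% to 0.203% of all counts in stimulated clone 1 and 0.103% to 0.113% in stimulated clone 2, against 0.000666% to 0.00114% in WT.

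**Figure D5:**
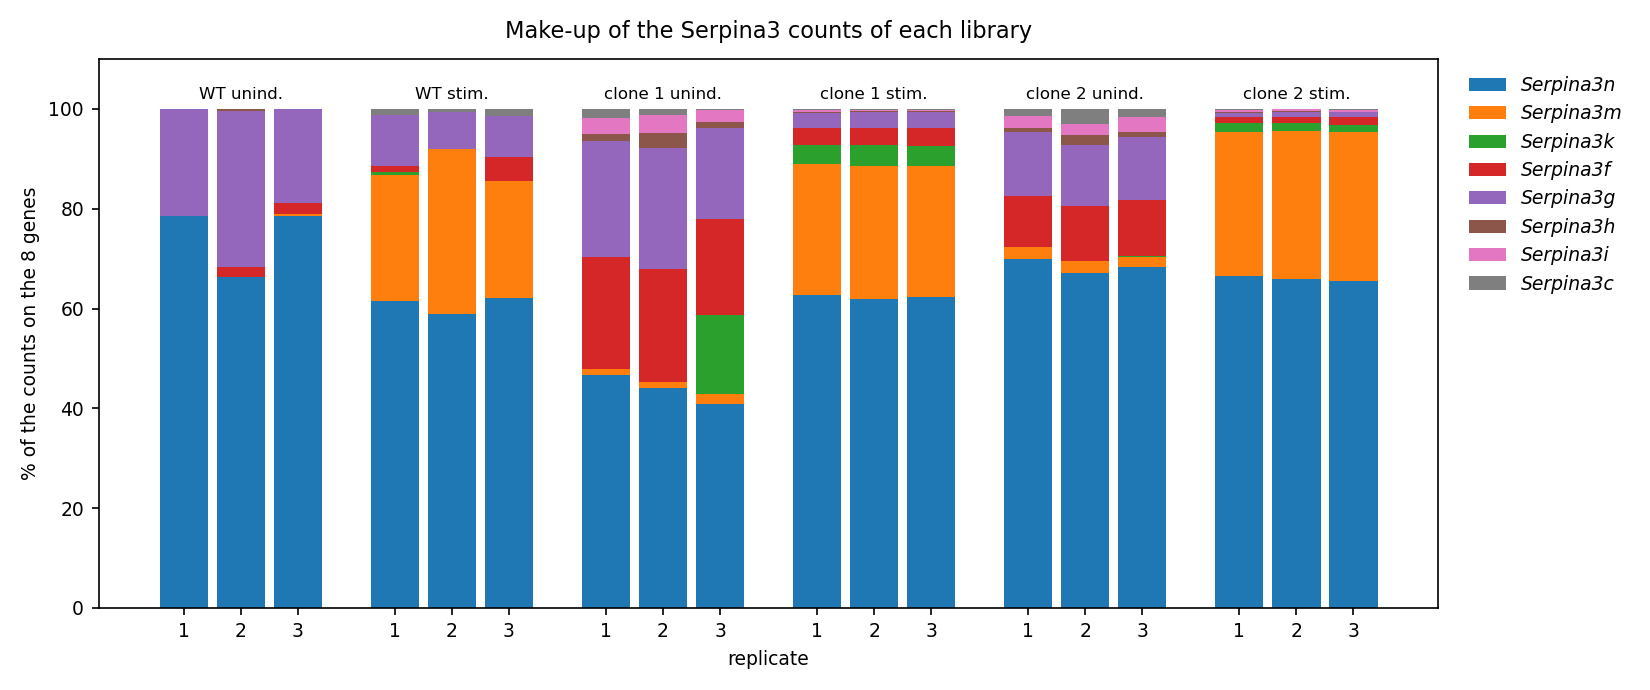
Share of each Serpina3 gene in the counts on the 8 genes, in percent, for each replicate of the 6 groups. Serpina3m (orange) takes 23.6% to 33.1% of the stimulated libraries of every genotype and at most 2.41% of any uninduced one.

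Clone 1 and clone 2 were also compared directly. In uninduced cells 3 members were called higher in clone 1 (4.89% of all genes were) and none lower (3.78%), with 8.67% of all genes called in either direction. Serpina3f (log2 1.24, SE 0.18, edgeR adjusted p = 2.8e-06) and Serpina3g (log2 1.03, SE 0.16, edgeR adjusted p = 5.63e-06) had separate groups. The Serpina3g fold fell to a log2 of 0.91 without clone 1 replicate 1 and 0.92 without clone 2 replicate 2, under the fold threshold. The call of Serpina3k (log2 6.03, edgeR adjusted p = 0.0387) rested on clone 1 replicate 3, and without it the difference was log2 -2.84 (edgeR adjusted p = 0.253). Serpina3n was slightly lower in clone 1 (log2 -0.39, SE 0.12, edgeR adjusted p = 0.0165), with overlapping groups and under the fold threshold.

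After stimulation, 5 members were called higher in clone 1 than in clone 2 (5.5% of all genes were), and none lower (4.48%). Serpina3g differed most (65.1 ± 3.96 against 12.2 ± 1.34 CPM, log2 2.41, SE 0.14, edgeR adjusted p = 2.39e-14), followed by Serpina3f (73.1 ± 2.86 against 16.6 ± 1.18 CPM, log2 2.13, SE 0.15, edgeR adjusted p = 7.37e-12). Serpina3k differed by a log2 of 2.06 (84.5 ± 5.70 against 20.2 ± 2.36 CPM, SE 0.59, edgeR adjusted p = 0.0152), Serpina3h by 1.43 and Serpina3c by 1.31. The groups of these 5 genes did not overlap, and for 27% of all genes the stimulated clone 1 libraries were all above those of clone 2.

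Some of these calls were fragile. Serpina3k gave an adjusted p of 0.408 in DESeq2 and 0.0574 in edgeR without clone 2 stimulated replicate 3. Serpina3h lost its call without clone 1 stimulated replicate 2 (edgeR adjusted p = 0.0693), and Serpina3c without clone 1 stimulated replicate 1 or clone 2 stimulated replicate 2. Serpina3n and Serpina3m were higher in clone 1 by smaller folds, a log2 of 0.67 (SE 0.09, edgeR adjusted p = 1.99e-05) and 0.60 (SE 0.06, edgeR adjusted p = 3.25e-10), with separate groups. Serpina3i was at 6.15 ± 0.789 and 4.86 ± 0.846 CPM and was not called (log2 0.33, SE 0.26, edgeR adjusted p = 0.318).

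The response itself differed between the clones for 2 members, where 1.54% of all genes had a larger response called in clone 1 and 3.02% a different one in either direction. These were Serpina3g (log2 1.39, SE 0.21, edgeR adjusted p = 1.75e-05) and Serpina3n (log2 1.06, SE 0.15, edgeR adjusted p = 0.000117). The Serpina3n value fell to 0.94 without clone 1 uninduced replicate 2 and 0.96 without clone 2 uninduced replicate 1. Serpina3m (log2 0.96, edgeR adjusted p = 0.00829) and Serpina3f (log2 0.89, edgeR adjusted p = 0.00834) stayed under the fold threshold. Without clone 1 uninduced replicate 3, Serpina3m passed it and was called (log2 1.33, edgeR adjusted p = 0.00135). Serpina3k moved from -3.97 to 4.90 without that library and was not called at either value.

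Promoter sequence was available for 5 of the 8 genes, and not for Serpina3h, Serpina3k and Serpina3m. It is shown because members that move together could be compared there. The windows are the 250 bases upstream of the RefSeq start (GRCm38.p6), 5′ to 3′ on the strand of the gene. Capitals mark matches, on either strand, to the glucocorticoid response element consensus, to TTCNNNGAA, the GAS element bound by STAT factors, to TTGCNNAA for C/EBP, or to the NF-κB consensus.
Serpina3n (chr12:104406458-104406707, plus strand): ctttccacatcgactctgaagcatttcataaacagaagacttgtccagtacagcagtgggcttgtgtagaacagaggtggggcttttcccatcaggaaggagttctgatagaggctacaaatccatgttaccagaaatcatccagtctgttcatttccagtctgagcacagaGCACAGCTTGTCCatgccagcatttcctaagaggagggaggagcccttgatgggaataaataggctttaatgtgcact
Serpina3c (chr12:104153873-104154122, minus strand): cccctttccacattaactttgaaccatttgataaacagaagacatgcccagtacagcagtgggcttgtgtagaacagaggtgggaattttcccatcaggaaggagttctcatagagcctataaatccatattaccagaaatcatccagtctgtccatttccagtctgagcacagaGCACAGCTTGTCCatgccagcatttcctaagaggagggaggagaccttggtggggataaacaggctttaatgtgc
Serpina3f (chr12:104214294-104214543, plus strand): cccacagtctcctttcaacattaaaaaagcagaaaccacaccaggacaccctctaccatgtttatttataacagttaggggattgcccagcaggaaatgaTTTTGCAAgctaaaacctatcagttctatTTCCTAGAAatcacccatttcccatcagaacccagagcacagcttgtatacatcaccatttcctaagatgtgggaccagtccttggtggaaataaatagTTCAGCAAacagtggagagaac
Serpina3g (chr12:104235897-104236146, plus strand): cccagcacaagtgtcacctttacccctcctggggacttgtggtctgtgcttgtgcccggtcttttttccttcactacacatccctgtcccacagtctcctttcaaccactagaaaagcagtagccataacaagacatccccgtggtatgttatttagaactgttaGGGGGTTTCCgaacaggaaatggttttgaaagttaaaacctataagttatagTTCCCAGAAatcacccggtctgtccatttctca
Serpina3i (chr12:104262872-104263121, plus strand): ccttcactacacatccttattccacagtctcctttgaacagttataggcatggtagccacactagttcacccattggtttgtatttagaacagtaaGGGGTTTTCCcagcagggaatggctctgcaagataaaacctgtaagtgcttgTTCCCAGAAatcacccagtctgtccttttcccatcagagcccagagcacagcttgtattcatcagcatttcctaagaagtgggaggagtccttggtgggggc

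The windows of Serpina3n and Serpina3c were 92.7% identical, and each held the glucocorticoid response element match GCACAGCTTGTCC, 78 and 75 bases before the start. Of 32851 promoter windows of this length, 0.387% held such a match. Serpina3f, 3g and 3i held a GAS match instead, TTCCTAGAA in Serpina3f and TTCCCAGAA in the other two (7.02% of windows). Serpina3g and Serpina3i also held an NF-κB match (7.25%), and Serpina3f held 2 C/EBP matches (any such match in 9.56% of windows). The forkhead motif TGTTTAC was in none of the 5 genes' windows (3.17%). A match is a description of these letters, and no binding was measured.

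The other Serpina3 genes of the cluster gave few or no counts. Serpina3a, Serpina3b, Serpina3j and Serpina3l-ps had 0 counts in all 18 libraries, and Serpina3d-ps had 3. Serpina3e-ps had 20 counts, with 1 to 5 in each of the 6 uninduced clone libraries, 2 and 4 in all over stimulated clones 1 and 2, and 0 in WT. Serpina3j, Serpina3d-ps and Serpina3e-ps lie between expressed members, and Serpina3l-ps within the span of Serpina3m.

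Of 75 flanking genes within 1 Mb of the cluster, 14 passed the filter, of which Serpina1e, Serpina6 and Ppp4r4 reached its cutoff in all 3 libraries of clone groups only. Their being tested already required high clone levels, and the counts and medians below include them. In clone 1 against WT, 3 were called higher in uninduced cells and none lower (6.32% of all genes were higher, 8.73% lower and 15.1% either), and 7 higher and 1 lower in stimulated cells (9.42% and 9.6%). In clone 2, 4 were called higher uninduced (5.54%, with 15.1% in either direction) and 5 stimulated (7.95%, with 8.94% lower), and none lower. The median log2 change of the tested flanking genes was 0.70 in stimulated clone 1 and 0.54 in stimulated clone 2, against -0.02 and -0.01 over all genes.

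Serpina1e, an α1-antitrypsin gene and the nearest tested gene on the Serpina3c side, had 3 counts in uninduced WT and 214 and 240 in uninduced clones 1 and 2. It was called higher in both clones in each treatment (stimulated log2 5.38, SE 0.52, and 4.75, SE 0.55). Because it passed the filter through clone groups only, these values are a description. Gsc, a homeobox gene and the nearest on the Serpina3n side, was called in stimulated clone 1 (log2 1.55, SE 0.22, edgeR adjusted p = 5.69e-07) and not in clone 2 (log2 0.77). Serpina6, the corticosteroid-binding globulin gene, had 0 WT counts. In clones 1 and 2 it had 57 and 65 counts uninduced and 8 and 1 stimulated.

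Ifi27l2a, an interferon-induced gene, was called higher in both clones in each treatment (uninduced log2 1.97 and 1.12). Syne3, which encodes a nuclear envelope protein, and the long noncoding RNA Gm28875 next to it were called higher in both stimulated clones, Syne3 by a log2 of 2.22 and 2.63 and Gm28875 by 2.12 and 2.35.

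The list of inputs to acute phase transcription held 22 genes, of which 17 were tested. In stimulated cells 8 were called higher and 1 lower in clone 1 than in WT, and 7 higher and none lower in clone 2, with a median log2 of 0.91 and 0.80. Over all tested genes, 9.42% were called higher and 9.6% lower in stimulated clone 1, and 7.95% and 8.94% in stimulated clone 2. The ligands Il6 (log2 1.22 and 1.80) and Lif (2.102 and 2.53) and the receptor chains Il6ra (1.87 and 1.85) and Osmr (1.03 and 1.25) were called higher in both clones. So were the transcription factors Cebpb (1.34 and 1.48) and Cebpd (1.46 and 1.89) and the glucocorticoid receptor gene Nr3c1 (1.67 and 1.58). In uninduced clone 1, 2 inputs were called higher than WT and 0 lower (6.32% and 8.73% of all genes). In uninduced clone 2, 1 was called higher and 2 lower (5.54% and 9.56%). Between the stimulated clones, 0 of the 17 were called in either direction (9.98% of all genes). A larger response in clone 1 than in clone 2 was called for 0 inputs and a smaller one for 2 (1.54% and 1.48%).

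With stimulation in WT, 5 of the 17 tested inputs were called higher and 2 lower, against 6.25% and 13.6% of all genes. Il6 rose there from 1.68 ± 0.155 to 10.95 ± 1.46 CPM and Lif from 0.793 ± 0.328 to 7.94 ± 0.881 CPM, while Nr3c1 fell from 123 ± 6.004 to 40.9 ± 0.993 CPM. Nr3c1 also went down in the clones, from 175 ± 3.67 to 130 ± 7.19 CPM in clone 1 and from 159 ± 8.01 to 122 ± 10.0 CPM in clone 2.

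Other tested inputs were measured as follows in stimulated cells, clone 1 before clone 2. Lifr was called in clone 1 (log2 1.16) and not in clone 2 (0.80), and Il1r1 was called lower in clone 1 (-1.14) and not in clone 2 (-0.46). Stat3, which carries interleukin 6 signals, was at 0.90 and 0.53, its feedback inhibitor Socs3 at 0.32 and 0.31, and the shared receptor chain Il6st at 0.72 and 0.04. Ifngr1 was at 0.91 and 0.96, Nfkb1 at 0.49 and 0.80, Rela at -0.04 and -0.12 and Tnfrsf1a at 0.13 and 0.07, none past the fold threshold. The other 5 genes of the list were below the filter.

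Other acute phase proteins were also higher in the clones. Of 19 genes, 9 were tested, and in each stimulated clone 8 were called higher and 1 lower (9.42% and 9.6% of all genes in clone 1, 7.95% and 8.94% in clone 2). Saa3, Orm1, Orm2 and Orm3 reached the filter's cutoff in all 3 libraries of clone groups only, so their being tested already required high clone levels, and the other 5 genes gave 4 higher and 1 lower. Lcn2, which encodes the iron-siderophore binding protein lipocalin 2, was at 4.35 ± 0.573 CPM in stimulated WT, 1719 ± 126 in clone 1 and 1491 ± 37.1 in clone 2 (log2 8.62 and 8.42). Saa3 had 0 counts in all WT libraries and 508 and 726 counts in stimulated clones. C3 (log2 6.01 and 5.34), haptoglobin Hp (6.06 and 6.08), ceruloplasmin Cp (4.61 and 4.89) and Orm1, Orm2 and Orm3 were called higher too, whereas Ptx3 was lower (-1.96 and -1.10).

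Unlike the Serpina3 members, these genes did not all rise with stimulation in the clones. In clone 1, 2 of the 9 were called higher and 2 lower on stimulation, and in clone 2, 6 higher and 1 lower. The shares over all genes were 5.95% higher and 10.7% lower in clone 1, and 6.46% and 11.2% in clone 2. Hp rose in clone 1 from 65.9 ± 5.15 to 836 ± 75.1 CPM, whereas Cp fell from 447 ± 14.6 to 53.5 ± 2.06 CPM.

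Proteases that Serpina3 proteins inhibit, and other serpins, formed the last lists. Of 10 protease genes, 4 were tested, and the serine proteases Elane, Ctsg, Gzmb, Cma1, Mcpt4 and Prtn3 were below the filter. Ctsh, which encodes cathepsin H, was called lower in both stimulated clones, with 77 and 2 counts against 529 in WT. No other protease was called there. In stimulated WT, clone 1 and clone 2, Ctsl was at 1927, 1585 and 1762 CPM and Ctsb at 484, 777 and 721 CPM. Of 40 other serpin genes, 13 were tested. In stimulated clone 1, 1 was called higher and 5 lower (9.42% and 9.6% of all genes), and in clone 2 none higher and 4 lower (7.95% and 8.94%), with Serpinb1a (log2 -2.14 and -2.71), Serpinb6b (-2.66 and -2.79), Serpinb9 (-1.17 and -1.54) and Serping1 lower in both. Serping1, the C1 inhibitor gene, had 22 counts in stimulated WT and 3 and 1 in the clones. It reached the filter's cutoff in all 3 libraries of uninduced WT only, so its being tested already required a high WT level. Serpinb6b reached the cutoff in all 3 libraries of no group.

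The members varied together over the 18 libraries, with a Pearson r of log2 CPM from 0.705 (Serpina3g and Serpina3m) to 0.970 (Serpina3f with Serpina3i). Serpina3m and Serpina3n correlated at 0.933. These points share libraries and the 6 group means, so the values are descriptive. Of the 10054 genes whose mean reached 5 CPM, those most like Serpina3n were Abhd5 (r = 0.985), Hacd2, Lzic, Slc35e4 and Layn (r = 0.975). The genes most like Serpina3g were Rasa3 (r = 0.981), Becn1, Stat5b, Acsl1 and Atp6v0d1 (r = 0.962).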

How the data were processed

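The authors sequenced poly(A) RNA, mapped paired reads to mm10 with HISAT2 and deposited raw counts per gene. For the counting program, annotation release and strand setting, the sources used here name none. Genes were kept by filterByExpr (minimum count 10, by group), and edgeR 4.0.16 fitted 1 mean per group after TMM scaling (glmQLFit robust, glmQLFTest). The members and gene lists were chosen with earlier results of these data known. The text names the members, the nearest tested gene on each side, flanking and list genes called in both clones in the same direction, the tested inputs (1 is not reported here), other Serpina genes nearby, Foxs1, and the 5 genes most correlated with Serpina3n and with Serpina3g. Other names (Thy1, Alb, Lifr, proteases below the filter and the like) are list members. Replicates differed by more than counting error (chi-square per degree of freedom 3.13 to 14.6). Intervals and floors (3 counts over a group) cover counting error only. Coding sequences were aligned with MAFFT 7.526. Alternatives were DESeq2 1.42.0, other filters, thresholds and scalings, a replicate block, only the groups compared, and each library left out.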

Additional observations from a re-analysis of the deposited data

Results flagged for a closer look

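The response to TGF-β1 and DMII differed between the FOXS1 KO clones for Serpina3g and Serpina3n, by a test of the difference itself. The log2 response of Serpina3g was larger in clone 1 by 1.39. Its stimulated libraries were at 60.7 to 68.3 CPM in clone 1 and 10.7 to 13.1 CPM in clone 2. The uninduced ones were separate too, at 9.06 to 11.4 and 4.07 to 5.31 CPM. The log2 response of Serpina3n was larger in clone 1 by 1.06. It was 0.94 without clone 1 uninduced replicate 2 and 0.96 without clone 2 uninduced replicate 1. A test against the fold threshold (glmTreat) called neither gene. Over all genes, 1.54% had a larger response called in clone 1. What sets the clones apart was not tested, and each clone is 1 isolate.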

How the results depend on the processing

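Without a fold threshold 4 members differed in response between the clones, and with no filter beyond 1 count also 4. Under these same 2 settings, flanking genes called against WT in uninduced cells numbered 8 and 8 in clone 1, and 10 and 8 in clone 2. DESeq2 called 5 and 7 of them. A test against the fold threshold (glmTreat) called 1 member in WT, 5 in clone 2, 0 between uninduced clones, 2 between stimulated clones and 0 for the difference in response, with 2 flanking genes in uninduced clone 2 and 5 in stimulated clone 1. Leaving out each library in turn gave 2 to 3 members called in WT, 8 in clone 1, 7 to 8 in clone 2, 1 to 3 and 4 to 5 between uninduced and stimulated clones, and 1 to 3 for the difference in response. Flanking genes ran from 3 to 6 in each uninduced clone, 6 to 8 in stimulated clone 1 and 4 to 5 in stimulated clone 2. Serpina3f in WT ran from log2 -1.52 (without stimulated replicate 3) to 0.95 and was -0.12 without uninduced replicate 1. Serpina3k ran from -2.84 to 6.62 between uninduced clones and from -4.56 to 4.90 for the difference in response, and turned in both without clone 1 uninduced replicate 3, whose counts are its whole uninduced signal there. DESeq2 called Serpina3k in WT (log2 15.1, adjusted p = 5.59e-09) on 1 count, for which the cause was not tested. The replicate numbers showed little sign of pairing: 2 of 45 correlations of same-numbered deviations passed 0.1. With 3 libraries in a group, these values cannot show that no culture or batch was shared. With replicate number as a block, the uninduced Serpina3k difference between clones was 5.87 (edgeR adjusted p = 0.0722), and no other call of a member changed. Depth limits WT values of Serpina3c, 3h, 3i and 3k, which rest on 6 counts or fewer over 6 libraries.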
